A study of Mus musculus with 6 samples.

Results

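The colony-stimulating factors are secreted proteins that drive the growth, survival and differentiation of myeloid cells. The 7 genes described here encode 2 of these factors (Csf1 and Csf3) and the receptor chains for M-CSF, GM-CSF and G-CSF (Csf1r, Csf2ra, Csf2rb, Csf2rb2 and Csf3r). They were taken by symbol from a gene table of 17904 genes, all 7 were found, and all 7 reached 1 FPKM (fragments per kilobase of transcript and mapped depth, a level per length) in at least 1 library, as did 11549 genes in all.

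RNA was sequenced from bone marrow-derived macrophages of C57BL/6 mice aged 8 weeks, which were grown from marrow for 5 days in medium with M-CSF. Genotypes were wild type (WT) and a knockout (KO) of Setd2, a methyltransferase of histone H3, and cells were collected without lipopolysaccharide (LPS, a bacterial product that activates macrophages) or 12 or 24 h after 100 ng/ml was added. Each of the 6 combinations of 2 genotypes and 3 times is a single library, and no replicate error can be given. The M-CSF in the medium was shared by every group, including the controls, and the amount is not given in the sources used here. The labels do not describe the Setd2 allele, nor whether animals or cultures are common to several libraries.

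M-CSF, the product of Csf1, acts through the tyrosine kinase receptor CSF1R and keeps macrophages alive. GM-CSF binds the alpha chain encoded by Csf2ra, which signals with the common beta chain encoded by Csf2rb, and a second mouse beta chain, encoded by Csf2rb2, serves the receptor for interleukin 3. G-CSF, the product of Csf3, acts through CSF3R and is best known for raising the output of neutrophils, and activated macrophages are among its sources. LPS is known to induce several of these genes and to make macrophages shed CSF1R protein from the surface, which transcript levels do not show.

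Promoter sequences were available from RefSeq (GRCm38.p6) for 4 of the 7 genes: Csf1, Csf2ra, Csf2rb2 and Csf3r. The 250 bases before the annotated start are shown for Csf1 and Csf2rb2, which were called higher after 12 h with LPS in both genotypes, 5′ to 3′ on the strand of the gene. The window listed for Csf3r lies inside the annotated gene and holds 109 bases of an exon in GENCODE M21, and is not shown. Capitals mark matches to short motifs. The intervals are chr3:107760470-107760719 on the minus strand for Csf1 and chr15:78305722-78305971 on the minus strand for Csf2rb2.
Csf1: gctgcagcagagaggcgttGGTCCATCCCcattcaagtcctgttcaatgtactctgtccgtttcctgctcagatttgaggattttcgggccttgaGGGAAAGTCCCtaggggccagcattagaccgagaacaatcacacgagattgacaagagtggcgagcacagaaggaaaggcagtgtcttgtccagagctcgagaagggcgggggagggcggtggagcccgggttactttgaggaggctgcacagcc
Csf2rb2: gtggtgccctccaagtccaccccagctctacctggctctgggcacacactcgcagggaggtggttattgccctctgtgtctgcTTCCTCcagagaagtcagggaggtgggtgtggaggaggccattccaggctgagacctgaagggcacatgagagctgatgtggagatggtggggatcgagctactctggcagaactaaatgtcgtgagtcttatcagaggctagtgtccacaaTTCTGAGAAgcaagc

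The search used 6 motifs on both strands, for NF-kB (GGGA, any 4 bases, then CC), AP-1 (TGANTCA), C/EBP (TTGCNNAA), STAT (TTCNNNGAA), the PU box of PU.1 (GAGGAA) and the interferon response element (GAAA, any 2 bases, then GAAA). Csf1 held the NF-kB letters at 3 places, of which a pair overlap on opposite strands (GGGAAAGTCC, whose first base is at -155 from the start, and its neighbour on the other strand). Csf2rb2 held 1 STAT motif (TTCTGAGAA) and 1 PU box. Over the first listed promoters of 27025 genes, cut to the same length, 17.3% held the NF-kB letters, 7.18% the STAT letters and 23.1% the PU box. AP-1, C/EBP and interferon element letters were not in either window, against 6.87%, 9.55% and 3.04% of all promoters. The window of Csf2ra, a gene called in no comparison, was searched too and is not shown. It held PU box letters that start at -14 and at -8. A match is a run of letters, and binding was not measured here.

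Csf2rb and Csf2rb2 lie beside each other on chromosome 15 and are close copies, which bears on how far their values can be told apart. Their coding sequences in GENCODE M21 (GRCm38), 2688 and 2634 nt long, were 95.2% identical over 2628 aligned bases. Of all 50-base windows of the coding sequence, 26% of Csf2rb and 26.6% of Csf2rb2 occurred unchanged in the other gene. The longest identical run within an exon, 242 bases of exon 14 (chr15:78348577-78348818, plus strand, for Csf2rb and chr15:78284630-78284871, minus strand, for Csf2rb2), and the most different 60 coding bases within an exon, from exon 4, are shown. The latter lie at chr15:78338893-78338952 on the plus strand for Csf2rb and at chr15:78294379-78294438 on the minus strand for Csf2rb2. Capitals in them mark the 13 bases that differ.
Identical run in both genes: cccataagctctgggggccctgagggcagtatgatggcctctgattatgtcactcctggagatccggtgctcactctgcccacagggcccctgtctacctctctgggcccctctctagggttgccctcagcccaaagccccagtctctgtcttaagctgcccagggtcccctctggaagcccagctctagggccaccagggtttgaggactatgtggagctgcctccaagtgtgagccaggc
Csf2rb, exon 4: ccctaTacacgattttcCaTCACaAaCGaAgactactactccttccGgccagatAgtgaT
Csf2rb2, exon 4: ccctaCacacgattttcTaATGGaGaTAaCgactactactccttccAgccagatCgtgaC

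Facts of the whole series were as follows. Low FPKM values come in steps of whole reads, and the depth read from these steps, for an assumed read length of 50 nt, lay between 21620000 and 22500000 mapped reads per library. Setd2 itself stood at 7.83, 8.68 and 7.51 FPKM in WT and at 9.96, 9.16 and 5.11 FPKM in the libraries labelled KO at 0, 12 and 24 h; a partial deletion can leave such a value in place, so this does not check the labels, and KO below means the label. All 8 macrophage markers were above 0 in every library, with a summed level of 1940 to 3670 FPKM. The difference between KO and WT followed transcript length across genes, with a Spearman rho of 0.51 at 0 h, 0.06 at 12 h and -0.42 at 24 h over 11438 to 11440 genes of these library pairs, so values with that trend removed are given where they change a statement. Comparisons are differences of log2(FPKM + 1), which understate the change of genes at low levels, and differences of at least 1 (2-fold) either way count as calls. In these bulk samples, fewer cells of a type and less RNA per cell cannot be told apart.

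Between the genotypes, 1 of the 7 genes was called higher in KO at 0 h (Csf1), 1 at 12 h (Csf1) and 2 at 24 h (Csf1 and Csf3), with 0 lower at each time. Of all measured genes, 2.96% were called higher and 1.26% lower at 0 h, 1.32% and 0.727% at 12 h, and 2.22% and 1.93% at 24 h. The median over the 7 genes was 0.2, 0.07 and -0.21, beside 0.02, -0.06 and -0.12 over all measured genes. Without the length trend the median over the 7 genes was 0.06, 0.05 and -0.01. In the difference of the 12 h responses 0 of 7 were called, where 1.65% of measured genes were called higher and 3.14% lower. The 5 receptor chains were not called at any time, and their differences ran from -0.89 (Csf1r at 24 h) to 0.55 (Csf2rb2 at 0 h).

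Csf1, which encodes M-CSF, was higher in the KO library than in WT at each of the 3 times. In WT, Csf1 went from 2.37 FPKM before LPS to 7.04 at 12 h and 4.18 at 24 h. In KO the same time points gave 8.61, 18.3 and 9.54 FPKM. All 3 KO values lie above all 3 WT values as deposited. After median-of-ratios scaling the KO value at 0 h (7.13) lay below the WT value at 12 h (7.39), as it did after trimmed-mean scaling (7.06 and 7.51). The ratios of FPKM, KO to WT, were 3.63 at 0 h, 2.6 at 12 h and 2.28 at 24 h, and the log2 differences 1.51, 1.26 and 1.02.

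By the depth estimate, the Csf1 values came from about 158 to 466 reads in WT and 582 to 1229 in KO. The 95% exact intervals of the ratios of reads were 3.04 to 4.35 at 0 h, 2.33 to 2.9 at 12 h and 1.99 to 2.64 at 24 h. They cover counting error only, and not the spread between cultures, which 1 library per group does not give. Removing the length trend left differences of 1.43, 1.25 and 1.1. A pseudocount of 5 brought them to 0.88, 0.95 and 0.66, short of a call at every time, as Csf1 stands at few FPKM.

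**Figure D1:**
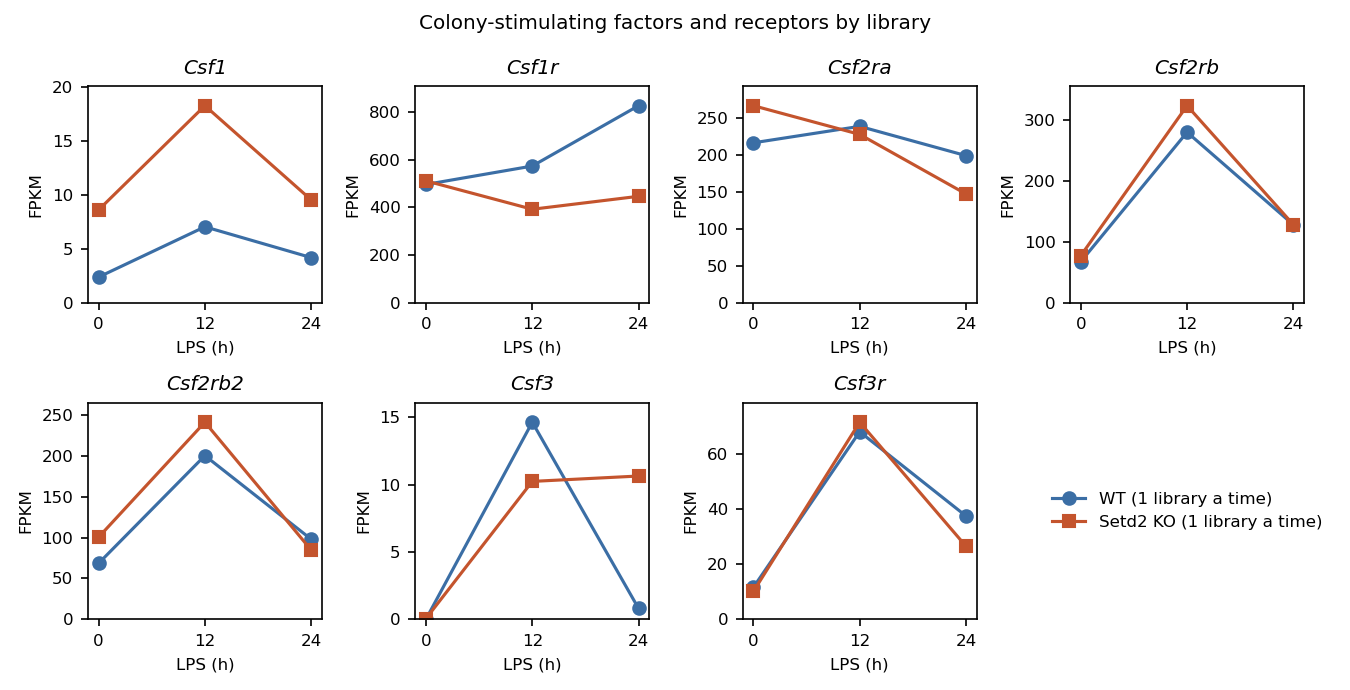
FPKM of the 7 genes (vertical axes, each from 0) against hours with LPS (horizontal axes) in WT (blue circles) and Setd2 KO (red squares), with 1 library per point and no error bars. Csf1 lies higher in KO at all 3 times, from 8.61 against 2.37 FPKM at 0 h, while Csf3 in WT drops from 14.6 FPKM at 12 h to 0.79 at 24 h and in KO stays near 10 FPKM (10.2 and 10.6).

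Over the 3 times together, limma's fit of genotype and time gave Csf1 a KO minus WT difference of 1.27 ± 0.17 (SE), higher at 3 of 3 times, with a raw p of 0.00019 and a Benjamini-Hochberg adjusted p of 0.16. The error in this fit comes from the spread of the difference over times, moderated toward the spread of all genes, and not from replicates. Of 11547 genes, 0.0173% passed an adjusted p of 0.05, namely Lyz1 and Lyz2, both lower in KO, while 1006 had a raw p under 0.05. Leaving out the 24 h pair gave Csf1 an adjusted p of 0.029 with limma, leaving out 0 h gave 0.055 and leaving out 12 h gave 0.58. Each of these fits holds the libraries of 2 times alone, again without replicates, so its p does not measure the spread between cultures. More genes passed in 2 of these fits: 33 higher and 12 lower without 24 h, and 43 and 14 without 0 h. Without 12 h, 2 higher and 2 lower passed. For the other 6 genes the lowest adjusted p in these limma fits was 0.22, for Csf1r without 0 h.

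Stromal and endothelial cells are known sources of Csf1. The 7 stromal markers summed to 6.88, 9.11 and 12.1 FPKM in WT and to 12.7, 10.7 and 11.1 FPKM in KO at 0, 12 and 24 h, with Col1a1 at 2.86 FPKM in WT and 5.76 in KO at 0 h. Lum was at 0 in both libraries at 0 h and at most 0.09 FPKM in any, and Pdgfra was at most 0.11. For Dcn, KO exceeded WT at 24 h (4.38 against 1.46 FPKM) but not at 0 h (0.22 against 0.35). Col1a1, Col1a2 and Col3a1 were each higher in KO at 0 h and lower in KO at 24 h. Their 24 h levels, KO against WT, were 3.52 against 5.74, 2.6 against 3.86 and 0.34 against 0.79 FPKM. The 4 endothelial markers summed to 2.79, 11.7 and 5.17 FPKM in WT and to 8.28, 21.2 and 4.98 FPKM in KO. Nearly all of it was Kdr (2.67, 10.95 and 4.9 in WT, then 8.08, 19.7 and 4.75 in KO). Like Csf1, Kdr was highest at 12 h in both genotypes and higher in KO at 0 and 12 h. At 24 h Kdr was not higher in KO, whereas Csf1 was (9.54 against 4.18 FPKM). Cdh5 was at 0.11, 0.78 and 0.24 FPKM in WT and at 0.2, 1.36 and 0.23 in KO. Emcn was above 0 in KO at 12 h alone (0.1 FPKM), and Tek was at most 0.03. The part of these cells in the Csf1 difference was not tested.

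Csf1r, the receptor for M-CSF, was the most abundant of the 7 transcripts in every library, with a rank between 69 and 179 among the 17904 genes. Its WT levels at 0, 12 and 24 h were 496, 573 and 826 FPKM. The KO values were 511, 392 and 446 FPKM. Both genotypes were alike before LPS, and at 12 and 24 h the KO library was the lower.

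The differences of Csf1r between KO and WT were 0.04, -0.55 and -0.89 at 0, 12 and 24 h, and none reached the 2-fold rule. Without the length trend they were -0.16, -0.57 and -0.71. The 24 h response was 0.74 in WT and -0.19 in KO, a difference of responses of -0.93, or -0.56 without the length trend, and the KO response then turned to 0.1. Scaling by the median of ratios put the 24 h response at 1.04 in WT, past the rule, and at 0.29 in KO.

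The ratio of receptor to ligand transcript was lower in KO throughout. Csf1r held 209 times the FPKM of Csf1 in WT at 0 h, 81.4 times at 12 h and 198 times at 24 h. In KO the ratios were 59.3, 21.4 and 46.7, below the lowest WT ratio at every time. M-CSF protein was also supplied in the medium, and protein was not measured here.

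**Figure D2:**
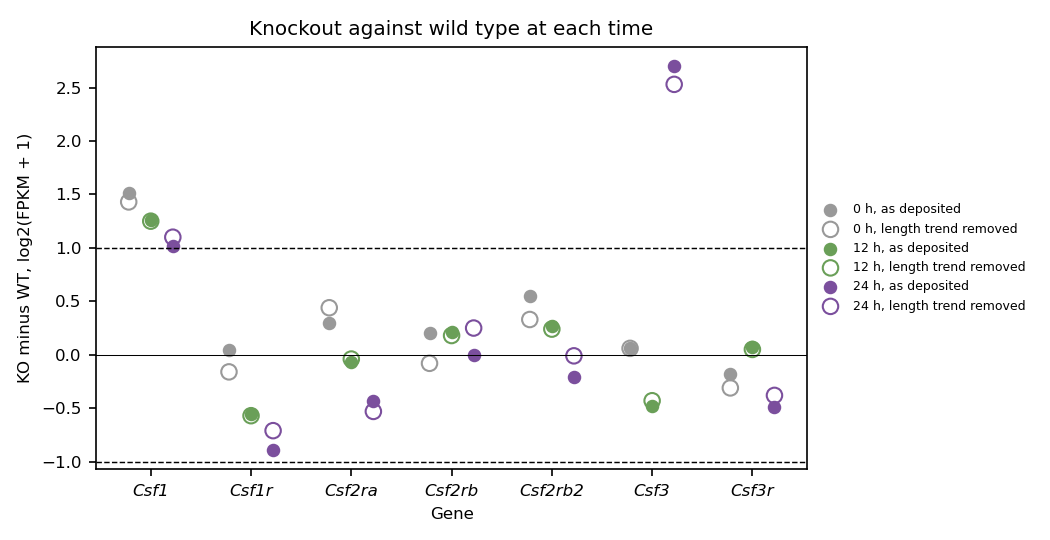
KO minus WT on the log2(FPKM + 1) scale (vertical axis) for the 7 genes (horizontal axis) at 0 h (grey), 12 h (green) and 24 h (purple), as deposited (filled) and with the length trend removed (open); dashed lines mark the 2-fold rule. The filled and open points past the upper line are those of Csf1 at all 3 times and of Csf3 at 24 h (2.70 as deposited), and no point lies past the lower line.

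Csf3, which encodes G-CSF, was near absent without LPS and induced in both genotypes at 12 h. WT was listed at 0 before LPS, then reached 14.6 FPKM by 12 h and was back at 0.79 by 24 h. KO began at 0.04 FPKM (about 1 read) and gave 10.2 and then 10.6 FPKM. At 12 h KO was the lower library, and at 24 h the WT level had come down while that of KO had not.

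At 24 h the ratio of Csf3 FPKM, KO to WT, was 13.5 and the log2 difference 2.7 (2.53 without the length trend). About 326 reads in KO and 24 in WT stood behind it, which gives an exact 95% interval of 8.77 to 21 for the ratio of reads, for counting error only. At 12 h the difference was -0.48, short of a call. From 12 to 24 h, Csf3 fell by 3.13 on the log2 scale in WT, and in KO the change was 0.05. The difference of the 24 h responses was 2.64, the 1 call among the 7 genes in that comparison, where 4.04% of measured genes were called higher and 8.63% lower. It rests on 4 libraries, of which the low one at 24 h is WT.

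Csf3r, the receptor for G-CSF, rose with LPS in both genotypes to nearly the same level. WT went from 11.5 FPKM to 68.2 at 12 h, with 37.5 left at 24 h. The KO series was 10.1, 71.6 and 26.5 FPKM. Both were highest at 12 h, and the 24 h value of KO lay below that of WT by a difference of -0.49, short of a call.

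Csf3r had the largest 12 h response of the receptors, 2.46 in WT and 2.72 in KO, and was still called higher at 24 h (1.62 and 1.31). It is also a gene of neutrophils. The 11 neutrophil markers summed to 102, 106 and 130 FPKM in WT and to 69.5, 56.8 and 116 FPKM in KO at 0, 12 and 24 h, most of it S100a8, S100a9 and Mmp8. From 0 to 24 h, Ly6g rose from 0.1 to 3.26 FPKM in WT and from 0 to 2.28 in KO. Mmp8 rose from 10.8 to 47.3 and from 12.2 to 47.4, and S100a8 from 34.75 to 62 and from 19.63 to 52.86. Csf3r was also higher at 24 h than at 0 h. S100a9 fell from 34.18 to 13.19 FPKM in WT and from 19.18 to 8.58 in KO. Ngp (9.66 to 1.17 and 9.07 to 0.36), Ltf (2.97 to 0.27 and 2.91 to 0.2) and Retnlg (0.49 to 0.08 and 0.57 to 0) fell too. Camp (1.9 to 1.87 and 1.41 to 2.01) and Cxcr2 (1.69 to 1.02 and 1.71 to 2.35) fell in WT and rose in KO. Elane and Mpo, which mark neutrophil precursors, were at 2.21 and 3.63 FPKM in WT at 0 h and at most 0.1 and 0.05 FPKM at 24 h in either genotype. The part of such cells in the Csf3r level was not tested.

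The GM-CSF receptor chains behaved differently from each other. Csf2ra, the alpha chain, was called in none of the comparisons, and gave 217, 239 and 199 FPKM in WT over the 3 times. In KO the values were 267, 228 and 147 FPKM. It was highest before LPS and lowest at 24 h in KO, and the 24 h response was -0.85 in KO and -0.12 in WT, none of them called. Scaling by the median of ratios turned the WT value to 0.19 and left KO at -0.37.

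The beta chains, in contrast, rose and came down again. Csf2rb in WT gave 67.3, 280.3 and 128 FPKM, and in KO 77.2, 324 and 128 FPKM. The KO and WT values differed by 0.21 or less on the log2 scale at each time, and Csf2rb was called higher at 12 h in both (2.04 and 2.06). Csf2rb2 gave 68.4, 200.5 and 97.95 FPKM in WT and 100.5, 241 and 84.7 FPKM in KO. Its 12 h responses were 1.54 in WT and 1.26 in KO, and its KO minus WT differences 0.55, 0.27 and -0.21, none called.

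The balance of the beta chains shifted with LPS in both genotypes. The ratio of Csf2rb2 to Csf2rb was 1.02 in WT and 1.3 in KO at 0 h. It was 0.715 and 0.745 at 12 h, and 0.765 and 0.66 at 24 h, so every LPS library lay below both libraries without LPS. How reads of the shared stretches printed above were split between the copies is uncertain. Their sum, which does not depend on that split to the same degree, was 136, 481 and 226 FPKM in WT and 178, 565 and 213 in KO, and rose by 1.82 and 1.66 at 12 h. Relative to Csf2ra the sum went from 0.626 to 2.01 in WT and from 0.666 to 2.48 in KO by 12 h, and stood at 1.13 and 1.45 at 24 h.

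**Figure D3:**
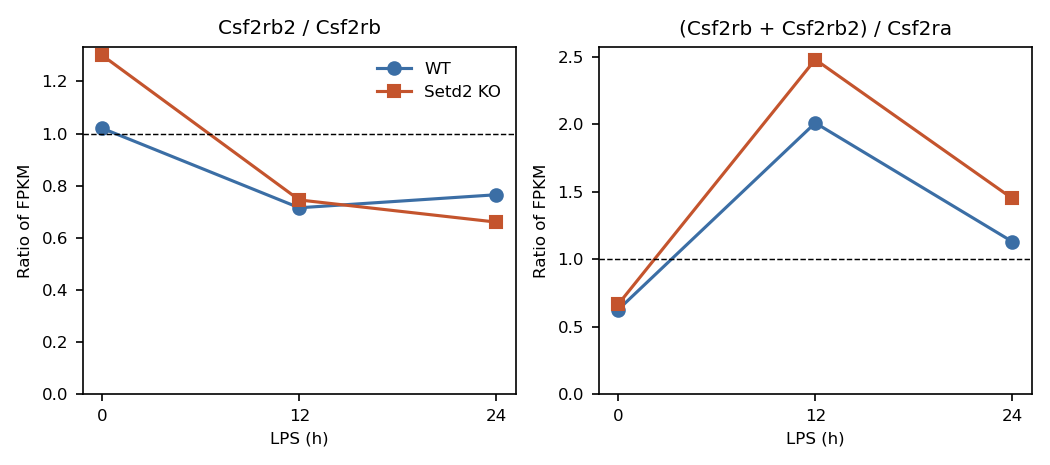
Ratios of FPKM (vertical axes, from 0) of Csf2rb2 to Csf2rb (left) and of the summed beta chains to the alpha chain Csf2ra (right) against hours with LPS (horizontal axes) in WT (blue circles) and Setd2 KO (red squares), 1 library per point; dashed lines mark a ratio of 1. Csf2rb2 falls below Csf2rb after LPS in both genotypes (0.66 to 0.765), and the beta sum passes Csf2ra at 12 h (2.01 in WT and 2.48 in KO).

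Counted over the 7 genes, the LPS response at 12 h was shared by the genotypes. The same 5 genes, Csf1, Csf2rb, Csf2rb2, Csf3 and Csf3r, were called higher and 0 lower in WT and in KO, where 9.64% and 8.63% of measured genes were called higher and 17.4% and 17.5% lower. The median over the 7 genes was 1.54 in WT and 1.26 in KO, beside -0.28 and -0.36 over all measured genes. At 24 h, 1 was called higher in WT (Csf3r) and 2 in KO (Csf3 and Csf3r), and 0 lower, with 7.65% and 7.55% of measured genes called higher and 13.9% and 21.6% lower. Csf2rb in KO at 24 h, at 0.73 as deposited, was past the rule without the length trend (1.11) and after median-of-ratios scaling (1.2). Both responses of a genotype are taken against a single 0 h library.

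Scaling by the median of ratios moved the median of all genes in the 12 h responses to -0.02 in both genotypes and in the 24 h responses from -0.25 in WT and -0.39 in KO to 0.00. Relative to that shift, the 5 genes were still called at 12 h. Csf1 then had a 12 h response of 1.48 in WT and 1.37 in KO. The KO value of Csf1, 1.01 as deposited, was 0.98 without the length trend.

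From 12 to 24 h, 3 genes were called lower in each genotype, and 0 higher, beside 3.79% of measured genes lower and 1.82% higher in WT and 7.67% and 4.78% in KO. In WT they were Csf3 (-3.13), Csf2rb (-1.12) and Csf2rb2 (-1.03). In KO they were Csf2rb2 (-1.5), Csf3r (-1.4) and Csf2rb (-1.33), and Csf3 was at 0.05. Without the length trend Csf2rb stood at -0.95 in WT and -0.89 in KO, and Csf2rb2 at -0.88 in WT, short of a call.

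Few related ligands and receptors were measured in these cultures. Of 13 related growth factor genes, 11 were in the table and 3 reached 1 FPKM. Csf2, which encodes GM-CSF, was listed at 0 in all libraries but KO 12 h, which held 0.05 FPKM, and Il34, the other ligand of CSF1R, was at most 0.35 FPKM. Il3ra, the alpha chain of the interleukin 3 receptor that pairs with the beta chains, was called lower in KO at 0 h: WT held 71.5, 53.7 and 55.3 FPKM at 0, 12 and 24 h, and KO 33.0, 38.4 and 69.1 FPKM. Its difference of -1.09 at 0 h came to -0.89, and was no call, once the length trend was removed. Kitl, which encodes stem cell factor, had 4.74 FPKM in WT and 8.31 in KO at 0 h, and Flt3l had 4.83 and 4.61, neither called.

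All 25 signalling genes of CSF1R were measured. In KO, 1 was called higher at 0 h, 0 were called at 12 h and 1 was called lower at 24 h. Shares over all measured genes were 2.96%, 1.32% and 2.22% higher and 1.26%, 0.727% and 1.93% lower. The list medians were 0.14, -0.02 and -0.21, or 0.05, 0.0 and -0.14 without the length trend. Cbl, a ubiquitin ligase that turns over the activated receptor, was called at 0 h, from 1.75 FPKM in WT to 11.8 in KO (2.22, and 1.71 without the length trend), while at 12 h it was at 21.1 and 20.2 FPKM. Fgr, a kinase of the Src family, was lower in KO at 24 h, with 17.9 FPKM in WT and 6.22 in KO (-1.39). Fyn, a relative of Fgr, and Pik3cg, a catalytic subunit of PI3 kinase, had differences of -0.89 and -0.8 at 24 h, short of a call.

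All 16 JAK-STAT genes that serve the GM-CSF and G-CSF receptors were measured. In KO, 3 were called higher at 0 h, 1 at 12 h and 2 at 24 h, with 0 lower. Shares over all measured genes were 2.96%, 1.32% and 2.22% higher and 1.26%, 0.727% and 1.93% lower. The list medians were 0.31, 0.37 and -0.28, or 0.16, 0.34 and -0.05 without the length trend. Socs1, an inhibitor of JAK kinases, was called at 0 h (1.53) and 24 h (1.38), with 29.7 FPKM in WT and 78.8 in KO at the later time. Bcl2l1, a survival gene of the BCL2 family, was called at the same times (1.17 and 1.05), with 33.9 FPKM in WT and 77.4 in KO at 0 h. Cish, a feedback inhibitor induced by STAT5, was called at 12 h (1.29), from 1.22 FPKM in WT to 4.44 in KO. Socs1 is also interferon-stimulated, so it belongs to no single receptor. With LPS, 8 of the 16 were called higher at 12 h and 0 lower in each genotype, beside 9.64% of measured genes higher and 17.4% lower in WT and 8.63% and 17.5% in KO.

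Of 21 myeloid transcription factors, 20 were measured. In KO, 2 were called higher at 0 h, 0 were called at 12 h and 1 was called lower at 24 h. Shares over all measured genes were 2.96%, 1.32% and 2.22% higher and 1.26%, 0.727% and 1.93% lower. The list medians were 0.1, 0.07 and -0.1, or 0.02, 0.08 and -0.02 without the length trend. Ets2 was called at 0 h (1.43), with 4.26 FPKM in WT and 13.2 in KO, and Rel, a subunit of NF-kB, also (1.01, and 0.67 without the length trend). Cebpd, a C/EBP factor, was lower in KO at 24 h, with 24.3 FPKM in WT and 9.24 in KO (-1.3).

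The list of receptor shedding and mRNA decay held 0 calls among 12 genes at each time. Shares over all measured genes were 2.96%, 1.32% and 2.22% higher and 1.26%, 0.727% and 1.93% lower. The list medians were 0.14, -0.1 and -0.23, or -0.16, -0.11 and 0.02 without the length trend. The list joins the machinery that sheds surface receptors with the proteins that decay transcripts of cytokines such as Csf3. Adam17, a sheddase of CSF1R, had 92.6 FPKM in WT at 24 h and 56.0 in KO (-0.72), and Rhbdf2, its partner, at 11.7 and 20.7 FPKM at 0 h (0.77). Of the decay factors, Zfp36l1 had differences of -0.9, -0.63 and -0.7 and Khsrp of -0.85 at 24 h.

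**Figure D4:**
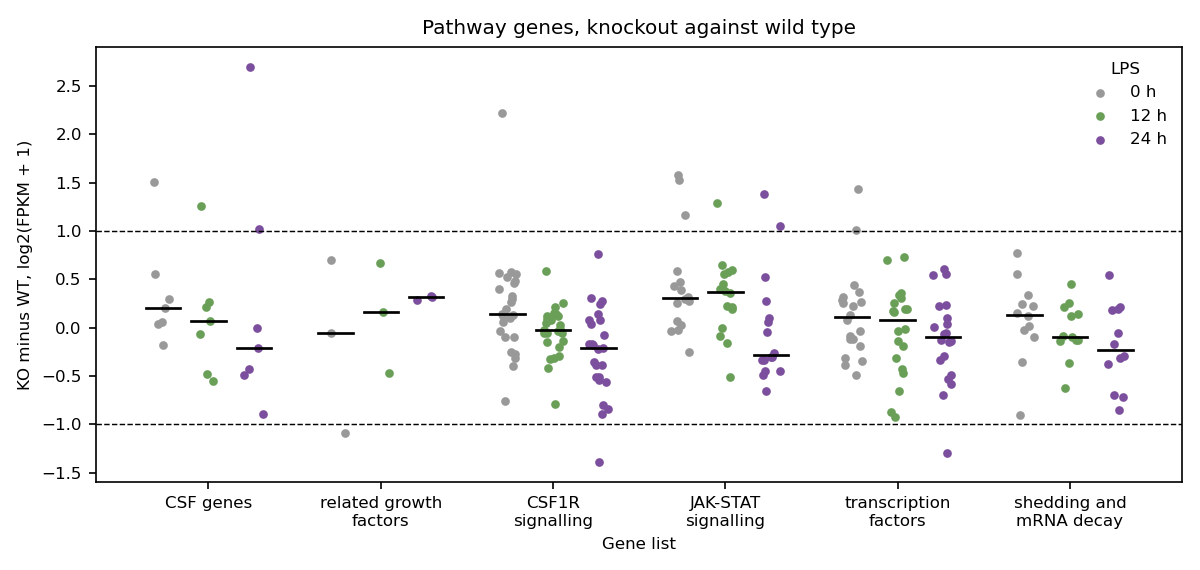
KO minus WT on the log2(FPKM + 1) scale (vertical axis) for each measured gene of the CSF genes and the 5 pathway lists (horizontal axis) at 0 h (grey), 12 h (green) and 24 h (purple); black bars are medians over the genes of a list and dashed lines mark the 2-fold rule. Csf3 at 24 h (2.7) and Cbl at 0 h (2.22) are the points farthest from 0, and the list medians lie between -0.28 and 0.37.

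Profiles most like each of the 7 were ranked over the 6 libraries among genes reaching 5 FPKM, by the root mean square difference of log2(FPKM + 1) after each gene was centred on its own mean. For Csf1 the nearest were Cd164 (0.23), Adam33 (0.26) and Mdm2 (0.3), against a median of 0.96 over 8845 genes. For Csf3 they were Adora2b (0.54), Bcl2a1d (0.58) and Tnf (0.58), against 1.88. Tnf, an inflammatory cytokine, gave 118 FPKM in WT and 184 in KO at 12 h, then 39.1 and 100.3 at 24 h.

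For the receptors, Csf1r was nearest to Mapk14 (0.12), Xbp1 (0.14) and Klf13 (0.14), and Csf2ra to Stk4 (0.02), Scaf8 (0.03) and Ddx3y (0.03). Csf2rb was nearest to Ppp1r15a (0.13), Gk (0.14) and Gpd2 (0.15), and Csf2rb2 to Nfat5 (0.1), Cpd (0.11) and Etnk1 (0.11). Csf3r was nearest to Plekhg1 (0.17), Igsf6 (0.18) and Dgat2 (0.22). The medians over all genes were 0.5 for Csf1r, 0.42 for Csf2ra, 1.03 for Csf2rb, 0.84 for Csf2rb2 and 1.25 for Csf3r.

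In the RefSeq annotation of GRCm38 the genes lie apart except for the beta chains. Csf1 (gene ID 12977) is at chromosome 3, 107741048 to 107760469, Csf1r (12978) at chromosome 18, 61105572 to 61131139, and Csf2ra (12982) at chromosome 19, 61217191 to 61228461. Csf2rb2 (12984) is at chromosome 15, 78282507 to 78305721, with Csf2rb (12983) at 78325800 to 78351001. Csf3 (12985) is at chromosome 11, 98700183 to 98703631, and Csf3r (12986) at chromosome 4, 126023441 to 126044975.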

How the data were processed

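Transcript levels came from 6 sequencing libraries, 1 per genotype and time. The authors deposited a table of FPKM values (the unit is per the file headers); per the submitters' processing notes, Bowtie2, RSEM and GRCm38 were used, with no versions or settings given. It has no counts and records no depth. The table has 17905 rows; 1 row without a gene was dropped, 25 symbols that had become dates were restored, and 2 cells that are not numbers were read as missing.

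Differences of log2(FPKM + 1) were computed, with genes reaching 1 FPKM in a library counted as measured and called at a size of 1. With 1 library per group there is no test of a single comparison. limma 3.58.1 (R 4.3.3; trend and robust options, Benjamini-Hochberg adjustment over 11547 genes) fitted genotype and time without interaction as an alternative. The length trend was a lowess curve (span 0.3, statsmodels 0.14.6) through each library's deviation from the libraries' mean log2 FPKM, against transcript length in GENCODE M21, using genes averaging 10 FPKM or more. Estimated reads use an effective length of the transcript less 50 nt plus 1 nt. The depth fit, scored by the mean cosine of the steps, reached 0.523 to 0.621, where 1 would mean whole reads only. Scripts were tested on simulated data.

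All 7 genes were described; of each pathway list, genes called at 2 or more times in the same direction and the 4 with the largest KO minus WT difference were named, and 3 genes per member for likeness. Some genes that meet this rule are not reported here. Csf2, Il34, Col1a1, Col1a2, Col3a1, Lum, Pdgfra, Dcn, Cxcl12, Kdr, Tek, Emcn and Cdh5 were named after their values were seen. So were Ly6g, S100a8, S100a9, Mmp8, Ngp, Ltf, Retnlg, Camp, Cxcr2, Elane and Mpo. Members, lists and motifs were chosen with earlier results of these data known.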

Additional observations from a re-analysis of the deposited data

Results flagged for a closer look

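The genotypes moved in opposite directions under the same contrast for 4 genes, and none of these differences was tested, as each group held 1 library. From 0 to 12 h, Csf1r had a difference of 0.21 in WT and -0.38 in KO, and Csf2ra of 0.14 in WT and -0.23 in KO. From 0 to 24 h, Csf1r had 0.74 in WT and -0.19 in KO, and Csf2rb2 had 0.51 in WT and -0.24 in KO. From 12 to 24 h, Csf3 had -3.13 in WT and 0.05 in KO. Of these values only the fall of Csf3 in WT reached 2-fold. With median-of-ratios scaling the KO values of Csf1r (0.02 and 0.29), Csf2ra (0.17) and Csf2rb2 (0.23) took the sign of WT, and with the length trend removed Csf3 in KO was at -0.29.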

How the results depend on the processing

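Of 77 differences of the 7 genes, 24 were called. Over 9 alternatives and 693 values, 647 kept their side of the rule, 23 lost a call, 23 gained one and 0 of the called values changed sign. The number of the 7 genes called moved by more than 1.5 times as follows, and by 1 or not at all otherwise. A pseudocount of 0.1 gave 2 for WT at 24 h against 0 h, in place of 1. A pseudocount of 5 gave 0 for KO against WT at 0 h, 0 at 12 h and 1 at 24 h, and a 3-fold rule gave the same 3 numbers. The 3-fold rule also gave 3 at 12 h against 0 h in WT and 3 in KO, 1 for KO at 24 h against 0 h, and for 24 h against 12 h 1 in WT and 0 in KO. A 1.5-fold rule gave 5 in WT and 4 in KO at 24 h against 0 h, 5 in each genotype at 24 h against 12 h, and 1 and 4 for the differences of the 12 and 24 h responses. Median-of-ratios and trimmed-mean scaling each gave 3 for WT at 24 h against 0 h, and removing the length trend gave 1 for WT at 24 h against 12 h. The cause was not tested, apart from the rules of size, which change the count by construction.

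Median-of-ratios scaling turned the split of all calls from 1113 higher and 2011 lower to 1478 and 1272 for WT at 12 h, from 996 and 2020 to 1389 and 1121 for KO at 12 h, from 883 and 1601 to 1155 and 1044 for WT at 24 h, and from 872 and 2489 to 1496 and 1358 for KO at 24 h. For KO against WT at 24 h it went from 256 and 223 to 325 and 158, and for the difference of 24 h responses from 467 and 997 to 740 and 710. The limma fit after removal of the length trend, chosen after seeing the data, gave Csf1 1.26 with an adjusted p of 0.057. Replicates could not be paired because each group holds 1 library, with the same replicate number. The only pairing was that of the limma fit, of KO with WT by time. The values of Csf3 at 0 h and of WT at 24 h rest on about 24 reads or fewer.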
